A study of Mus musculus with 20 samples.

Results

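The 44 genes described here encode histone lysine methyltransferases and demethylases, read in alveolar macrophages of mice that breathed cigarette smoke or air. They were chosen by symbol, as all rows of the deposited table of 13225 genes whose symbol begins with Kmt, Kdm or Setd and a number, or with Setdb, together with Ezh1, Ezh2, Nsd1, Ehmt1, Ehmt2, Suv39h1, Suv39h2, Dot1l and Prdm2. Macrophages were sorted from the lung by CD45, Siglec-F and CD11c, and each of 20 mice gave 1 poly-A RNA library. The 4 groups of 5 mice were miR-155 knockout (KO) mice in smoke, KO mice in air, wild-type (WT) mice in smoke and WT mice in air, each exposed for 4 weeks. KO mice were of the strain B6.Cg-Mir155tm1.1Rsky/J and WT mice of the strain C57BL/6. The labels give no age or sex and no shared batch, and the knockout is carried by the whole animal, so a difference between genotypes cannot be assigned to the macrophage itself.

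Histone lysine methyltransferases write methyl groups on the tails or core of histones with S-adenosylmethionine as donor, mostly through a SET domain, and demethylases remove them through a flavin-dependent or a JmjC domain. Methylation of histone H3 lysine 4 (H3K4) marks active promoters and enhancers, that of H3K9 and H3K27 marks silent chromatin, and that of H3K36 and H3K79 marks transcribed gene bodies. In macrophages, enhancer H3K4 methylation and the H3K27 demethylase Kdm6b are best known for their part in responses to inflammatory stimuli.

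Values were deposited as log2 CPM, a gene's reads scaled to the total reads of its library, and are given as CPM for single mice. Libraries held 6885680 to 11952088 reads, so that 3 reads equal 0.251 to 0.436 CPM. Alveolar macrophage markers were read for all 17 listed genes, with a summed level of 32031 to 36859 CPM in KO smoke, 31577 to 36992 in KO air, 29833 to 36403 in WT smoke and 32697 to 36260 in WT air. Within that sum single markers changed with smoke, 8 of 17 called lower and 5 higher in KO and 9 lower and 4 higher in WT, among them the fatty acid binding protein gene Fabp1 at -2.93 log2 in KO and -2.99 in WT and Car4 at 1.09 and 1.52. The KO air mice IIIb2, IIIb3 and IIIb4 stood apart, with 1451 to 1645 genes without a read, against 259 to 1224 in the other 17 libraries. The members' smoke calls in KO, and the members' medians that use KO air, are also given without them. Counts by enzyme group, list and marker, and the comparison of Ezh2 with Ezh1, are given with all mice only. Mir155hg, the transcript that hosts miR-155, had 8 reads over the KO smoke libraries, 25 over KO air, 48 over WT smoke and 2 over WT air. Because no label describes the deleted segment, reads of the host transcript are no test of the knockout.

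Nearly all of the 44 genes were well read. A read was present in all 20 libraries for 41 of them, and 41 of 44 members averaged 3 log2 CPM or more (67.3% of all genes). Kdm8, Setd4 and Suv39h2 each lacked a read in 1 library. Per kilobase of the longest annotated transcript, Kmt5a, which monomethylates H4K20, had the highest mean level at 69.1 CPM per kb, followed by the H3K9 methyltransferase Ehmt2 (G9a) at 45.0 and the H4K20 methyltransferase Kmt5c at 35.0. Levels per kilobase then ran down through Kdm3b at 23.6 and Kmt2e at 22.9 to Kdm5b at 1.70, Kdm8 at 1.43 and the H3K9 methyltransferase Suv39h2 at 0.527, the lowest. Kdm4d was listed too but has no row in the deposited table, so it is not analysed here.

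With smoke, 14 of the 44 members were called lower in KO mice and 21 of 44 in WT mice, and 0 were called higher in either (limma, Benjamini-Hochberg adjusted p under 0.05 over all 13225 genes). Over all genes, 8.45% were called lower and 7.05% higher in KO smoke, and 12.8% lower and 9.66% higher in WT smoke. The median log2 change of the members was -0.19 in KO smoke, against -0.01 over all genes, and -0.28 in WT smoke, against -0.02 over all genes. With TMM scaling the members' medians were -0.15 in KO and -0.25 in WT, and those of all genes turned to 0.04 and 0.02. With TMM scaling the split over all genes was 809 lower and 1097 higher in KO, against 1118 and 933 as deposited, and 1441 lower and 1632 higher in WT, against 1690 and 1278. Under quantile normalization, median centring and TMM scaling 11, 12 and 11 members were called lower in KO, and 18, 21 and 20 in WT. Values fell on the negative side for 34 members in KO and 37 in WT. Of the members called lower, 13 were shared, being 13 of the 14 in KO and 13 of the 21 in WT. Kdm1a was called in KO and not in WT, and Kdm2a, Kdm5a, Kdm5d, Kdm7a, Kmt2c, Kmt5a, Setd2 and Setd5 in WT and not in KO. The smoke response of no member differed between genotypes at an adjusted p under 0.05, so none of these 9 was shown to respond in one genotype alone. Without the KO air mice IIIb2, IIIb3 and IIIb4, only IIIa5 and IIIb1 were left in that group. In that fit 8 members were called lower in KO, and 608 of all genes, against 1118 with all mice. Ehmt2, Kdm1a, Kdm6b, Kmt2b, Nsd1, Prdm2 and Setdb1 were lost and Kmt5a was gained. The median log2 change in that fit was -0.23 for members and -0.04 for all genes. The sizes of the changes ran over -32.5% to -13.1% for called members in KO and over -39.2% to -17.9% in WT. In bulk RNA, fewer cells of a type and less RNA per cell cannot be told apart.

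**Figure D1:**
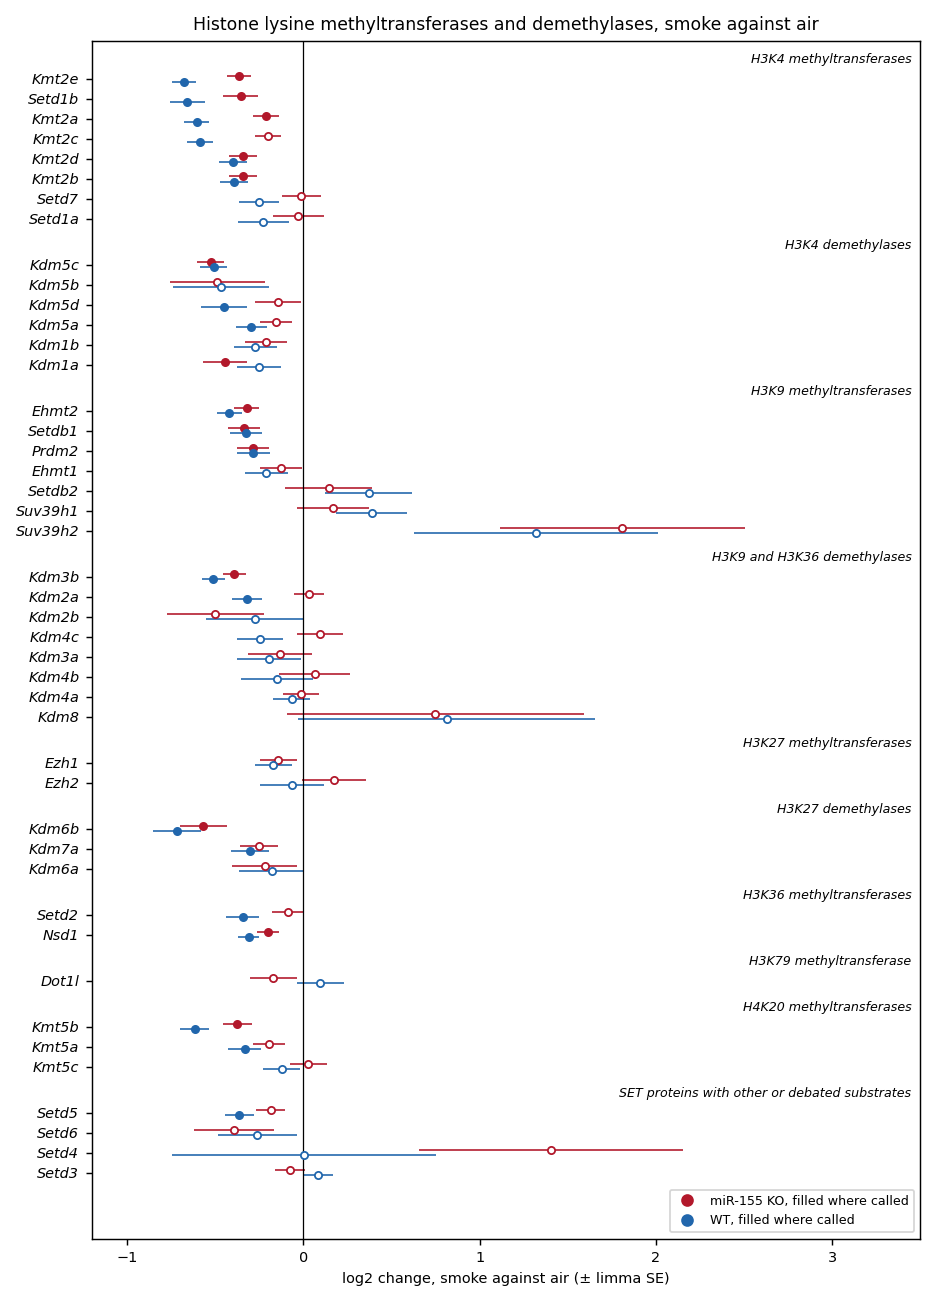
Log2 change (x axis, with limma standard errors) of each of the 44 members in smoke against air, by the histone residue that the enzyme acts on. Red points are KO mice and blue points WT mice, 5 per group, and filled points passed the adjusted p threshold: all filled points lie left of 0, 14 in KO and 21 in WT.

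Every smoke library lay under every air library for 6 members in KO (5.34% of all genes) and for 20 members in WT (9.97% of all genes). The 6 in KO were Ehmt2, Kdm1a, Kdm3b, Kdm5c, Kmt2e and Kmt5b. In WT the 20 included Kdm1b and Setd7, which did not pass the adjusted p threshold (0.109 and 0.113).

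Transcript length moved with the smoke response of all genes and belongs beside these counts. The longest annotated transcript had a median of 6041.5 bases for the members and 3195 bases over all genes. Genes that averaged 3 log2 CPM or more were divided into 4 equal bins of length, and 27 of the 41 members at that level fell in the longest bin, with transcripts of 4934 bases or more. In that bin 15.1% of genes were called lower in KO smoke and 32.8% in WT smoke, against 12 of the 27 members in KO and 19 of the 27 in WT. The median log2 change there was -0.22 for members and -0.08 for all genes in KO, and -0.35 and -0.19 in WT.

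When the trend of level on longest transcript length was removed from each library, 10 members were called lower in KO (7.76% of genes) and 10 in WT (9.87% of genes). The 10 in WT were Ehmt2, Kdm3b, Kdm5c, Kdm6b, Kmt2a, Kmt2c, Kmt2e, Kmt5a, Kmt5b and Setd1b. The other 11 that had been called were lost, among them Kmt2d with -0.07 ± 0.07 (adjusted p 0.548) and Nsd1 with -0.02 ± 0.06 (0.865). The median instead of the longest transcript length of each gene was also used, a choice made after the data were seen. With it 12 members were called lower in KO and 18 in WT, beside 957 and 1388 of 12657 genes. How far length accounts for the smoke responses was not tested beyond these fits.

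**Figure D2:**
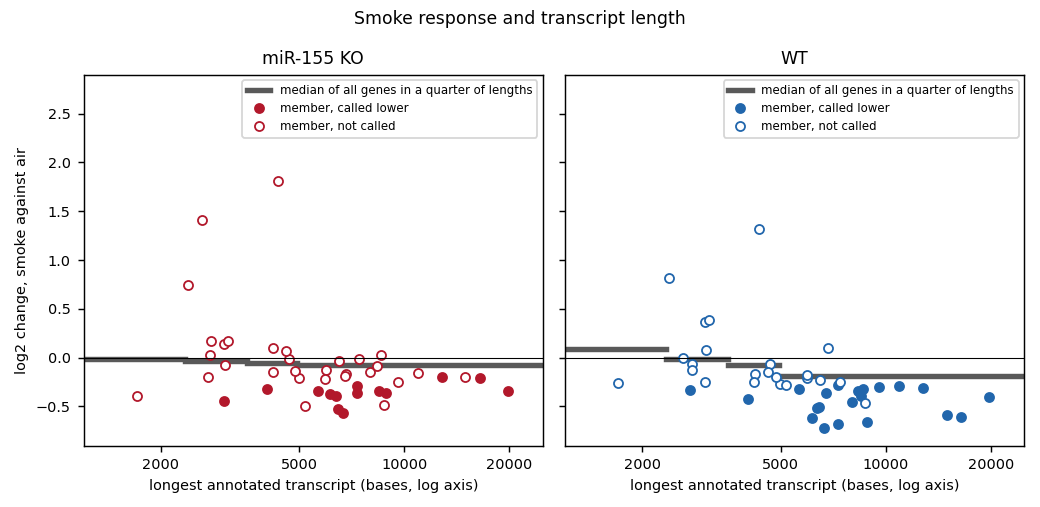
Log2 change in smoke against air (y axis) of each member against its longest annotated transcript length in bases (x axis, log scale), in KO (left) and WT (right). Filled points were called lower, and grey bars are medians of all genes that averaged 3 log2 CPM or more, in 4 bins of length, the longest at -0.08 in KO and -0.19 in WT.

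**Figure D3:**
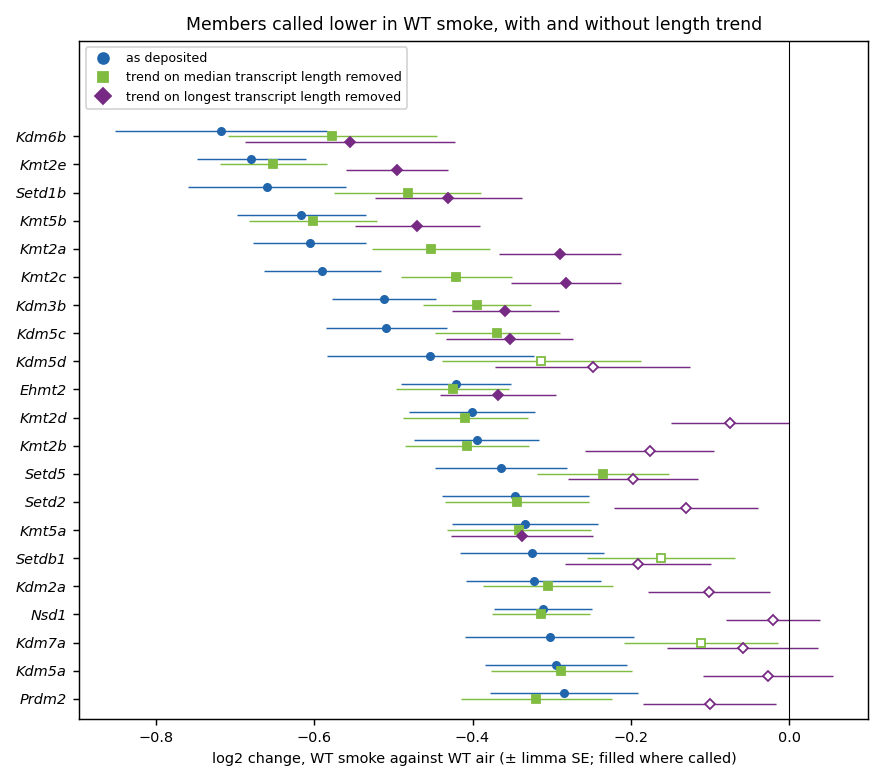
Log2 change with limma standard error (x axis) in WT smoke against WT air for the 21 members called lower. Circles are the deposited values, squares the values after the trend on median transcript length was removed and diamonds those after the trend on longest length was removed, filled where called: 18 of these 21 squares and 10 diamonds are filled.

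H3K4 methyltransferases held the most calls. Of the 8 in the group, 5 were called lower in KO smoke (8.45% of all genes) and 6 in WT smoke (12.8% of all genes). Their median log2 changes were -0.28 in KO and -0.50 in WT. These 8 have long transcripts, with a median of 8663 bases, and after removal of the trend on longest length 3 were called lower in KO and 4 in WT. Kmt2a (MLL1) and Kmt2b (MLL2) methylate H3K4 at promoters, Kmt2c (MLL3) and Kmt2d (MLL4) at enhancers, and Setd1a and Setd1b carry much of the trimethylation at active promoters. Kmt2e (MLL5) has the family's name but a divergent SET domain, and is known to bind methylated H3K4 rather than to write it.

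Kmt2e (GRCm38 chromosome 5, 23434441 to 23504235, plus strand) had 147, 144, 162, 153 and 150.1 CPM in KO smoke, against 182, 197, 209, 185 and 202 in KO air. It had 125, 144, 114, 118 and 121 CPM in WT smoke, against 191, 221, 198, 191 and 192 in WT air. Smoke and air mice did not overlap in either genotype. Its log2 change was -0.37 ± 0.07 in KO (SE, n = 5 mice per group, limma adjusted p 0.000301) and -0.68 ± 0.07 in WT (1.72e-08), the smallest p of the members in WT.

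Kmt2a (GRCm38 chromosome 9, 44803355 to 44881296, minus strand) had 129, 150.1, 147, 139.8 and 147 CPM in KO smoke, against 172, 174, 139.7, 183 and 159.9 in KO air. In WT smoke it had 113, 104, 102, 107 and 114 CPM, against 179, 161, 162, 157 and 162 in WT air. The WT groups were apart, while the KO groups overlapped. The log2 change was -0.21 ± 0.07 in KO (limma adjusted p 0.0419) and -0.61 ± 0.07 in WT (2.53e-07). The KO call was lost without any of 6 of the 10 KO libraries, IIIa5, IIIb1, IIIb3, IVa2, IVb2 or IVb4 (adjusted p up to 0.124), and under 8 of 15 other settings, among them quantile normalization, median centring and TMM scaling.

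Kmt2c (GRCm38 chromosome 5, 25271798 to 25498783, minus strand) had 156, 163, 137, 155 and 170.1 CPM in KO smoke, against 185, 183, 170.0, 164 and 194 in KO air. It had 125, 135, 113, 129 and 121 CPM in WT smoke, against 183, 182, 217, 184 and 172 in WT air. The KO groups overlapped and the WT groups did not. Its log2 change of -0.20 ± 0.07 in KO did not pass (limma adjusted p 0.0635, or 0.0380 without IIIb3 and 0.0466 without IVb4), and that of -0.59 ± 0.07 in WT did (6.26e-07).

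Setd1b (GRCm38 chromosome 5, 123142193 to 123168629, plus strand) had 61.3, 88.4, 84.4, 77.2 and 80.95 CPM in KO smoke, against 107, 105, 87.03, 89.2 and 113 in KO air. In WT it had 70.5, 64.9, 66.9, 65.2 and 60.5 CPM in smoke, against 109, 110.1, 119, 94.2 and 88.1 in air. One KO smoke mouse exceeded the lowest KO air mouse, and the WT groups were apart. It changed by -0.36 ± 0.10 log2 in KO (limma adjusted p 0.0128, or 0.0611 without IVa2) and -0.66 ± 0.10 in WT (1.22e-05).

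Kmt2d averaged 281 ± 28.3 CPM in KO smoke and 357 ± 32.8 in KO air, and 234 ± 14.8 in WT smoke and 309 ± 32.5 in WT air (SD, n = 5 each). Kmt2d fell by 21.3% in KO and 24.3% in WT, and Kmt2b by 21.2% in KO and 23.9% in WT. Setd1a ranged over 21.5 to 30.3 CPM in KO smoke, 21.3 to 33.9 in KO air, 22.8 to 28.5 in WT smoke and 25.5 to 37.6 in WT air, and was not called. Its exons share 51.9% of their bases with Gm49388 on the same strand, so its reads are uncertain. Setd7, which monomethylates H3K4 and other proteins, had log2 changes of -0.01 ± 0.11 in KO and -0.25 ± 0.11 in WT (adjusted p 0.964 and 0.113). The WT value of Setd7 passed in fits of the 2 WT groups alone (limma adjusted p 0.0313) and with array weights (0.0107).

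The proteins that hold KMT2 and SETD1 enzymes in their complexes were listed as well. Of 11 measured COMPASS and MLL partners, 0 were called in either direction in KO smoke and 0 in WT smoke, with medians of -0.05 and -0.04 log2. At an unadjusted p under 0.05 there were 0 in KO and 1 in WT. For all genes the called shares were 8.45% lower and 7.05% higher in KO, and 12.8% and 9.66% in WT. The partners have shorter transcripts, with a median of 3385 bases, and the difference between the enzymes and their partners was not tested.

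**Figure D4:**
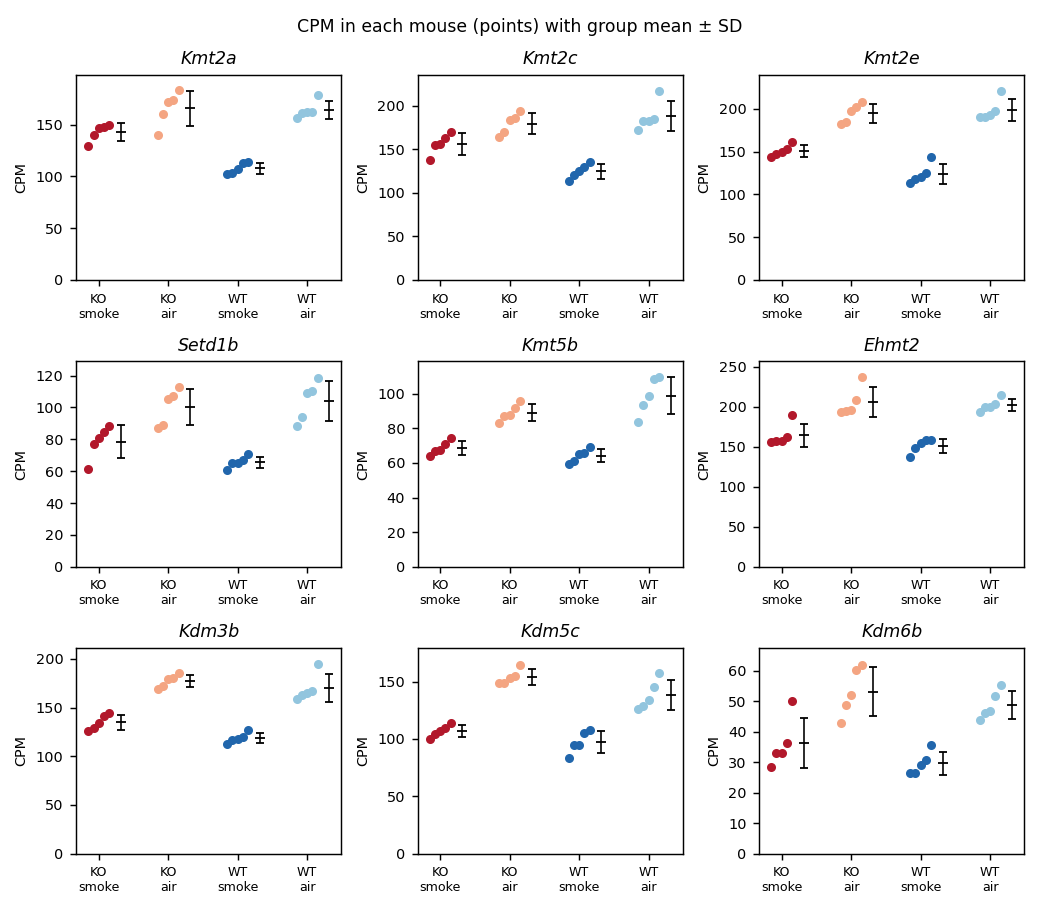
CPM (y axis, from 0) of 9 members in each mouse (points) with the group mean and SD beside them, for KO smoke, KO air, WT smoke and WT air, 5 mice each. Smoke mice sit under air mice in both genotypes for Kmt2e, Kmt5b, Ehmt2, Kdm3b and Kdm5c, and in WT also for Kmt2a, Kmt2c, Setd1b and Kdm6b.

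Of the 6 H3K4 demethylases, 2 were called lower in KO smoke (8.45% of all genes) and 3 in WT smoke (12.8% of all genes). Kdm5c, an X-linked JmjC enzyme that removes methyl groups from di- and trimethylated H3K4, had 104, 109.8, 114, 107 and 99.97 CPM in KO smoke, against 149, 153, 165, 149 and 155 in KO air. It had 94.5, 94.6, 83.7, 106 and 108 CPM in WT smoke, against 129, 126, 134, 157 and 146 in WT air. No smoke mouse reached its air group in either genotype. The log2 changes were -0.53 ± 0.08 in KO (limma adjusted p 1.07e-05) and -0.51 ± 0.08 in WT (1.07e-05). Kdm5c held its call in both genotypes under every setting that was run.

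Kdm5d, the Y-linked relative of Kdm5c, was read in every library. It averaged 40.7 ± 3.37 CPM in KO smoke and 46.00 ± 11.2 in KO air, and 38.5 ± 4.55 in WT smoke and 52.5 ± 3.21 in WT air (SD, n = 5 each). It was called in WT at -0.45 ± 0.13 log2 (limma adjusted p 0.0114), a call lost with either length correction. The 4 measured sex-linked genes are all on the Y chromosome, with Kdm5d among them. Each had at least 13.6 CPM in every library, and Xist had no row in the deposited table, as in male mice. Their summed level was 190.5 to 243 CPM in KO smoke, against 190.8 to 279 in KO air. In WT it was 178 to 211 CPM in smoke, against 242 to 273 in air. Of the 4, 1 was called lower in KO and 3 in WT. Eif2s3y, not called in WT, had 75.8 to 87.7 CPM in WT smoke, against 63.7 to 88.1 in WT air. Kdm5a, which acts on the same mark as Kdm5c, had log2 changes of -0.16 in KO and -0.30 in WT (limma adjusted p 0.264 and 0.0164). The WT call of Kdm5a was lost with quantile normalization, with the longest-length correction and without Ib2, IIb1 or IIb2 (up to 0.0653). Kdm5b was scarce, with 8.49 to 19.02 CPM in KO smoke, 12.6 to 24.8 in KO air, 6.57 to 16.9 in WT smoke and 10.5 to 17.6 in WT air, and was not called.

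Kdm1b (LSD2), a flavin-dependent demethylase, had -0.21 ± 0.12 log2 in KO and -0.27 ± 0.12 in WT, not called, though the WT value passed with array weights (limma adjusted p 0.0166) and without a variance trend (0.0341). Kdm1a (LSD1), the flavin-dependent demethylase of the CoREST corepressor, had 44.6, 39.5, 39.5, 41.02 and 35.3 CPM in KO smoke, against 49.4, 47.1, 67.5, 45.9 and 65.4 in KO air. In WT it had 37.7, 37.2, 32.6, 38.1 and 49.3 CPM in smoke, against 48.8, 50.7, 38.4, 49.7 and 43.6 in air. The KO groups did not overlap and the WT groups did. The KO change of -0.44 ± 0.13 log2 was called (limma adjusted p 0.014) and the WT change of -0.25 ± 0.13 was not (0.16, or 0.0260 with array weights). Without IIIb2, IIIb3 and IIIb4, 2 of which gave the highest KO air values, the KO change was -0.27 ± 0.15 and not called (0.283). Among 9 CoREST partners, 1 was called lower in KO, the HMG-box protein gene Hmg20b at -0.40 log2, and 3 in WT, Gse1 at -0.46, Zmym2 at -0.44 and the scaffold gene Rcor1 at -0.39. None of the 9 was called higher in either genotype. Of all genes, 8.45% were called lower in KO smoke and 12.8% in WT smoke.

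H3K9 methyltransferases split between called decreases and uncalled values on the other side. Of 7, 3 were called lower in both KO (8.45% of all genes) and WT (12.8% of all genes), namely Ehmt2, Setdb1 and Prdm2. Ehmt2 (GRCm38 chromosome 17, 34898469 to 34914052, plus strand), the enzyme of H3K9 mono- and dimethylation, had 156, 162, 190.3, 158 and 157 CPM in KO smoke, against 196, 194, 237, 194 and 209 in KO air. It had 154, 137, 148, 159 and 158 CPM in WT smoke, against 199.7, 204, 215, 200.3 and 193 in WT air. Smoke mice lay under air mice in both genotypes. The log2 changes were -0.32 ± 0.07 in KO (limma adjusted p 0.0015) and -0.42 ± 0.07 in WT (4.47e-05).

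Setdb1, which trimethylates H3K9 at retroelements together with the corepressor Trim28, averaged 64.4 ± 4.87 CPM in KO smoke and 81.6 ± 9.43 in KO air, and 65.1 ± 6.64 in WT smoke and 81.3 ± 4.26 in WT air (SD, n = 5 each). Setdb1 fell by 20.9% in KO and 20.1% in WT, and was not called in WT with either length correction. The KO calls of Ehmt2 and Setdb1 were lost without the 3 KO air mice that stood apart (adjusted p 0.0737 and 0.369). Prdm2, a zinc-finger protein with a SET-like domain, had log2 changes of -0.29 ± 0.09 in KO (limma adjusted p 0.035) and -0.28 ± 0.09 in WT (0.0264). Its KO call was lost without any of IIIb1, IIIb2, IIIb4, IVa2, IVa4, IVa5 or IVb4 (up to 0.121), and its WT call without any of Ia3, Ib1, Ib2, IIa1, IIb2 or IIb3 (up to 0.0794).

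Of 9 H3K9 and HP1 partners, 2 were called lower and 1 higher in KO, and 4 lower and 1 higher in WT. The shares of all genes were 8.45% lower and 7.05% higher in KO, and 12.8% and 9.66% in WT. Trim28 fell by 0.39 log2 in KO and 0.42 in WT, and the Setdb1 cofactor gene Atf7ip by 0.32 and 0.52. Ehmt1 (GLP), the partner of Ehmt2, had -0.13 ± 0.12 in KO and -0.21 ± 0.12 in WT, and Setdb2 had 0.14 ± 0.25 and 0.37 ± 0.25, neither called.

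Suv39h1 and Suv39h2 trimethylate H3K9 at pericentric heterochromatin. Suv39h1 had 24.7, 23.3, 34.6, 33.2 and 18.6 CPM in KO smoke, against 20.8, 17.1, 32.2, 20.6 and 28.98 in KO air. It had 24.3, 33.2, 15.9, 28.1 and 26.1 CPM in WT smoke, against 17.9, 15.6, 23.9, 17.6 and 20.9 in WT air. The groups overlapped, and neither the KO change of 0.17 ± 0.20 nor the WT change of 0.39 ± 0.20 passed (adjusted p 0.644 and 0.188). Its exons share 14.6% of their bases with the antisense gene Gm14820, and whether reads were counted by strand is not given in the sources used here.

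Suv39h2 had 2.18, 1.53, 2.18, 5.5 and 1.47 CPM in KO smoke, against 0.92, 0.777, 2.69, 0 and 0.743 in KO air. It had 2.9, 6.24, 2.7, 2.89 and 4.38 CPM in WT smoke, against 0.914, 0.718, 0.999, 2.56 and 3.26 in WT air. The groups overlapped in both genotypes and the changes of 1.81 ± 0.69 and 1.32 ± 0.69 log2 were not called (adjusted p 0.0773 and 0.187), though the KO change passed without IIIb2 (0.0184) and the WT change in fits of the 2 WT groups alone (0.0473) or with log2(CPM + 5) (0.0407).

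Of 8 H3K9 and H3K36 demethylases, 1 was called lower in KO smoke (8.45% of all genes) and 2 in WT smoke (12.8% of all genes). Kdm3b, a JmjC enzyme that removes mono- and dimethylation from H3K9, had 126, 145, 134, 129 and 141 CPM in KO smoke, against 179, 186, 172, 169.6 and 180.4 in KO air. It had 112, 118, 120.3, 117 and 127 CPM in WT smoke, against 165, 159, 195, 163 and 167 in WT air. The smoke and air groups were apart in both genotypes. Its log2 changes were -0.39 ± 0.07 in KO (limma adjusted p 8.24e-05) and -0.51 ± 0.07 in WT (1.05e-06), and both calls held under every setting that was run. Its exons share 24.6% of their bases with the antisense gene Gm26538.

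Kdm2a, which removes dimethylation from H3K36 and binds unmethylated CpG islands, had log2 changes of 0.03 ± 0.09 in KO and -0.32 ± 0.09 in WT (limma adjusted p 0.864 and 0.00576). The difference between these responses was 0.35 ± 0.12 and did not pass (adjusted p 0.311). The Kdm4 enzymes, which act on trimethylated H3K9 and H3K36, were not called: Kdm4a had -0.01 in KO and -0.07 in WT, Kdm4b 0.06 and -0.15, and Kdm4c 0.09 and -0.24, the WT value of Kdm4c passing with array weights (limma adjusted p 0.0439). Kdm3a, the relative of Kdm3b, had -0.13 in KO and -0.19 in WT, and Kdm2b, which recruits a Polycomb complex to CpG islands, -0.50 and -0.28. Kdm8, whose activity as a demethylase is debated, ranged over 0 to 5.85 CPM in KO smoke, 0.135 to 3.26 in KO air, 4.01 to 6.63 in WT smoke and 1.8 to 4.33 in WT air, and its KO value passed on the higher side without IVa5 (limma adjusted p 0.0169) and in no other fit.

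On H3K27, the methyltransferases were not called and the demethylase Kdm6b fell. Kdm6b (JMJD3; GRCm38 chromosome 11, 69398508 to 69413675, minus strand) had 28.3, 33.1, 49.9, 36.3 and 33.1 CPM in KO smoke, against 42.8, 61.7, 52.1, 48.7 and 60.2 in KO air. It had 30.7, 29.1, 26.4, 26.5 and 35.6 CPM in WT smoke, against 46.8, 45.96, 55.2, 51.6 and 43.7 in WT air. One KO smoke mouse lay within the KO air group, and the WT groups were apart. Kdm6b had the largest decrease of the called members in both genotypes, -0.57 ± 0.13 log2 in KO (limma adjusted p 0.00334) and -0.72 ± 0.13 in WT (0.000194). Without the 3 KO air mice that stood apart, the KO change was -0.53 ± 0.18 (adjusted p 0.0596).

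Kdm7a, which acts on H3K9 and H3K27, was called in WT at -0.30 ± 0.11 log2 (limma adjusted p 0.0399), with -0.25 ± 0.11 in KO (0.111, or 0.0487 without IIIb3 and 0.0467 without IVb2). That WT call was lost without any of 7 libraries, Ia4, Ib1, Ib2, Ib4, IIb1, IIb2 or IIb3 (up to 0.114), and with quantile normalization, TMM scaling or either length correction. Kdm6a (UTX) had -0.22 in KO and -0.18 in WT, not called.

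Ezh1 and Ezh2 are the alternative catalytic subunits of Polycomb repressive complex 2, Ezh2 being the form of dividing cells. Ezh1 had 80.1, 69.1, 69.7, 69.6 and 61.02 CPM in KO smoke, against 85.5, 61.9, 69.1, 93.1 and 78.8 in KO air, and Ezh2 had 31.3, 26.1, 47.03, 44.3 and 30.2 CPM in KO smoke, against 31.1, 25.9, 38.3, 22.5 and 40.4 in KO air. In WT smoke Ezh1 had 58.9, 58.5, 58.8, 55.5 and 65.5 CPM, against 78.1, 58.6, 66.96, 72.2 and 60.3 in WT air, and Ezh2 had 30.7, 40.5, 19.8, 30.9 and 35.2 CPM in smoke, against 30.2, 32.2, 28.98, 35.1 and 34.02 in air. Smoke and air overlapped for both genes in both genotypes. Within a mouse, log2 CPM of Ezh2 minus that of Ezh1 was -0.997 ± 0.387 in KO smoke and -1.31 ± 0.473 in KO air, and -0.957 ± 0.378 in WT smoke and -1.06 ± 0.231 in WT air (SD, n = 5 each). The differences of 0.32 in KO and 0.10 in WT did not pass a 2-sided exact permutation test (p = 0.286 and 0.611, adjusted 0.571 and 0.611, smallest possible 0.00794).

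Cell cycle genes moved in the same libraries: 13 of 24 were called higher and 0 lower in KO smoke, and 14 higher and 1 lower in WT smoke, with the proliferation gene Mki67 at 0.71 ± 0.08 in KO and 0.80 ± 0.08 in WT (limma adjusted p 1.51e-07 and 1.35e-08). Of 10 PRC2 partners, 1 was called lower in KO, Aebp2 at -0.24 log2, and 3 in WT, Suz12 at -0.55, Jarid2 at -0.51 and Aebp2 at -0.42. None of these 10 was called higher. Shares over all genes were 8.45% lower and 7.05% higher in KO smoke, and 12.8% and 9.66% in WT smoke.

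Ezh2 is a textbook target of the cell cycle factors E2F, and the promoters of the 44 genes were searched on both strands for the E2F core TTTNNCGC, with N for any base. RefSeq promoters on GRCm38.p6, from 250 bases before to 50 bases after the start, matched 34 members. The core was present in 3 of these 34 genes, Ezh2, Kmt5c and Suv39h1 (8.82%), against 9.91% of the 9379 genes of the table with a promoter. These are the Ezh2 promoter (chr6:47594981-47595280, minus strand) and the Suv39h1 promoter with the matches (chrX:8074312-8074611, minus strand), with the core in capitals.
Ezh2: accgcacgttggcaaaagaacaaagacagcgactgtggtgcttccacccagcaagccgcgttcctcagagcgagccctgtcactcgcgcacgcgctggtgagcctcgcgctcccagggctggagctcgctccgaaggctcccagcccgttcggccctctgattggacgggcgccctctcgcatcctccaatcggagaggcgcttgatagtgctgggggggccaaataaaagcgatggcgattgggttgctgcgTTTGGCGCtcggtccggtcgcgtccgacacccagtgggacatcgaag
Suv39h1: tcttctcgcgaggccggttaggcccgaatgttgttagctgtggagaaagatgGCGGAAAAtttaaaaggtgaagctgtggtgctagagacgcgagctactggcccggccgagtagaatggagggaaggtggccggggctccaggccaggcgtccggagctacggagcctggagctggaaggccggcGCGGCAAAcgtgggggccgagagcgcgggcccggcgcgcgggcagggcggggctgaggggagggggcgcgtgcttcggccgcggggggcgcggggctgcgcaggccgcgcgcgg
The capitals in Suv39h1 are the core read on the other strand. A match in these letters is a description and no evidence of a bound factor.

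The promoters of members were rich in CpG, with a median of 28 CpG per 300 bases, against 20 over the promoters of all genes of the table, and a GC content of 64.0% against 60.3%. Kmt2c, with 56 CpG, and Kmt2a, with 36, are shown because they had the lowest adjusted p values between genotypes in smoke. Their promoters on GRCm38.p6 lie at chr5:25498734-25499033 and chr9:44881240-44881539, both on the minus strand, and CpG is in capitals.
Kmt2c: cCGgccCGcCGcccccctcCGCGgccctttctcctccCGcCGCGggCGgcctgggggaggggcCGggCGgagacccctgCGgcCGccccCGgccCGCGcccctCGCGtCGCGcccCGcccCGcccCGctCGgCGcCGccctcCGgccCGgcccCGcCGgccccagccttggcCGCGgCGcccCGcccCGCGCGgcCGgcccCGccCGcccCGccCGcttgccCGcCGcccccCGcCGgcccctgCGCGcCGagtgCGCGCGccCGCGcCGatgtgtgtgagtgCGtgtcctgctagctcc
Kmt2a: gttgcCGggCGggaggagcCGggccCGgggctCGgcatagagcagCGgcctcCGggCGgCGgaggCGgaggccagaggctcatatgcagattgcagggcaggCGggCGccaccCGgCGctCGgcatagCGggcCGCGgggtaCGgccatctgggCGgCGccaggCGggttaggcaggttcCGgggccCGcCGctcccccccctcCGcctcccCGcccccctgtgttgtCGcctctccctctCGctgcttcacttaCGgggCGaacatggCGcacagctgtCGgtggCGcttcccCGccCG
Neither holds the E2F core.

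Both H3K36 methyltransferases were called lower in WT smoke (12.8% of all genes) and 1 of them in KO smoke (8.45% of all genes). Nsd1, which dimethylates H3K36, had 185, 196, 192, 184 and 178 CPM in KO smoke, against 208, 227, 211, 195 and 236 in KO air. It had 168, 173, 176, 176 and 158 CPM in WT smoke, against 221, 214, 216, 205 and 199 in WT air. The KO groups overlapped by 1 mouse and the WT groups did not. The changes were -0.20 ± 0.06 log2 in KO (limma adjusted p 0.0227) and -0.31 ± 0.06 in WT (0.000375). The KO call was lost without IIIb1, IIIb4 or IVb4 (up to 0.0749), without the 3 KO air mice that stood apart and under each of the 3 other scalings. Setd2, the enzyme of H3K36 trimethylation, had -0.09 ± 0.09 in KO (0.591) and -0.35 ± 0.09 in WT (0.00695). Dot1l, the H3K79 methyltransferase, was not called, with -0.17 ± 0.13 in KO and 0.09 ± 0.13 in WT.

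Of the 3 H4K20 methyltransferases, 1 was called lower in KO smoke (8.45% of all genes) and 2 in WT smoke (12.8% of all genes). Kmt5b, which makes di- and trimethylated H4K20 (GRCm38 chromosome 19, 3767421 to 3818303, plus strand), had 63.8, 74.3, 66.8, 70.8 and 67.6 CPM in KO smoke, against 86.8, 95.98, 82.99, 87.4 and 91.9 in KO air. It had 59.3, 65.4, 65.7, 61.3 and 69.3 CPM in WT smoke, against 98.5, 108, 109, 93.7 and 83.9 in WT air. The groups were apart in both genotypes, with changes of -0.37 ± 0.08 in KO (limma adjusted p 0.00161) and -0.62 ± 0.08 in WT (1.65e-06). Kmt5a was called in WT at -0.33 ± 0.09 (0.00851), with -0.19 ± 0.09 in KO (0.164, or 0.0295 with array weights and 0.0245 without the 3 KO air mice that stood apart). It is among the shorter members, at 2739 bases, and its WT change was -0.34 after the trend on longest length was removed. Kmt5c, the close relative of Kmt5b, had 0.03 in KO and -0.12 in WT, not called.

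SET proteins with other or debated substrates gave 0 calls of 4 in KO and 1 in WT, Setd5 at -0.36 ± 0.08 log2 (limma adjusted p 0.00171), with -0.19 ± 0.08 in KO (0.135, or 0.0237 without IIIb2). Setd3, an actin histidine methyltransferase, had -0.08 in KO and 0.08 in WT, and Setd6 had -0.39 and -0.26. Setd4 ran from 0 to 9.29 CPM over the 20 libraries and was not called. Over the whole set, 10 of 27 methyltransferases and SET proteins were called lower in KO and 14 in WT, and 4 of 17 demethylases in KO and 7 in WT. Of all genes, 8.45% were called lower in KO smoke and 12.8% in WT smoke, or 15.1% and 32.8% in the longest length bin. The long H3K4 methyltransferases gave 5 of the methyltransferase calls in KO and 6 in WT. The difference between methyltransferases and demethylases was not tested.

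Related enzymes and cofactors were counted from lists by function. Beside these counts, 8.45% of all genes were called lower and 7.05% higher in KO smoke, and 12.8% and 9.66% in WT smoke. Among 12 other JmjC proteins, 3 were called lower in KO smoke and 5 in WT smoke, and 0 higher. The corepressor gene Hr (hairless) had the largest decrease, -2.16 ± 0.23 log2 in KO and -2.50 ± 0.23 in WT (limma adjusted p 6.39e-08 and 3.33e-09). Of 11 other SET domain methyltransferases, 3 were called lower in each genotype and 0 higher, with the transcriptional repressor gene Prdm1 (Blimp-1) at -1.24 ± 0.21 in KO and -1.16 ± 0.21 in WT, and Ash1l at -0.26 and -0.54. Of 10 histone acetyltransferases, 1 was called lower in KO, Kat6a at -0.29, and 3 in WT, Crebbp at -0.52, Kat6a at -0.45 and Ep300 at -0.27.

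Of 16 histone deacetylases, 1 was called lower in KO and 2 in WT, near the shares of all genes (8.45% and 12.8%). Of 8 arginine methyltransferases, 2 were called lower in KO and 0 in WT, with 0 higher in either list. DNA methylation genes were mixed, with 1 lower and 2 higher of 7 in KO and 2 lower and 2 higher in WT. The DNA demethylation gene Tet2 fell by 0.33 log2 in KO and 0.52 in WT, while Uhrf1, which directs maintenance methylation, rose by 0.37 in KO and 0.54 in WT. Of 7 genes listed for S-adenosylmethionine supply, 1 was called higher in each genotype and 1 lower in WT, Mat2b at -0.40. The 1 called higher was Ahcyl1, at 0.46 in KO and 0.59 in WT. Ahcyl1 was listed by its name as a relative of Ahcy, and its part in that supply was not tested.

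Other changes in the sorted cells accompanied smoke. The summed level of 5 neutrophil markers was 139 to 314 CPM in KO smoke, against 86.1 to 134 in KO air, and 159 to 357 in WT smoke, against 90.3 to 129 in WT air. These markers did not move one way, with 3 called higher and 1 lower in each genotype: Mmp8 had 2.42 log2 in KO and 2.34 in WT, and Csf3r -1.59 and -1.69. The 11 monocyte and interstitial macrophage markers summed to 471 to 587 CPM in KO smoke, against 629.5 to 858 in KO air. In WT they summed to 459 to 780 CPM in smoke, against 586 to 729 in air. Of them 2 were called higher and 4 lower in KO, and 5 higher and 3 lower in WT. Of 7 T and NK cell markers listed, Cd3e, Cd3g, Cd8a, Nkg7 and Klrb1c had no row in the deposited table, nor had any of 4 B cell markers. The 2 measured T and NK cell markers, Il7r and Cd4, summed to 0.642 to 6.08 CPM in KO smoke, against 0 to 1.26 in KO air. In WT they summed to 7.47 to 41.2 CPM in smoke, against 0.571 to 1.71 in air. Il7r alone had 7.35 to 39.3 CPM in WT smoke, and Cd4 reached at most 1.91 there. The eosinophil genes Prg2, Epx and Ccr3 were listed and had no row either. The 2 eosinophil markers measured summed to 119 to 161 CPM in KO smoke, against 71.2 to 123 in KO air. In WT they summed to 126 to 193 CPM in smoke, against 72.0 to 82.2 in air. Here too 1 was called higher, Ear6 at 3.24 log2 in KO and 2.87 in WT, and 1 lower, Siglece at -1.30 and -1.09. The 4 dendritic cell markers summed to 180.2 to 212 CPM in KO smoke, against 107 to 148 in KO air, and 198 to 348 in WT smoke, against 126 to 153 in WT air. Most of that sum was Cd24a, with 174 to 205 CPM in KO smoke and 190 to 327 in WT smoke. Flt3, Zbtb46 and Ccr7 reached at most 3.42, 2.99 and 14.6 CPM. The 5 epithelial markers summed to 160.0 to 204 CPM in KO smoke, against 188 to 274 in KO air, and 167 to 220.3 in WT smoke, against 179 to 243 in WT air. Among these, 1 was called higher and 2 lower in each genotype. The neutrophil gene S100a9 had no read in any air library, and C1qa none in WT air. The endothelial gene Kdr reached 1.69 CPM in WT smoke and 0.230 elsewhere. The sort marker Siglecf ranged over 168 to 273 CPM in KO smoke, 397 to 606 in KO air, 174 to 293 in WT smoke and 489 to 574 in WT air. The part of any of these in the members' changes was not tested.

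Between genotypes in air, 0 of 44 members were called lower (0.265% of all genes) and 0 higher (0.151% of all genes) in KO than in WT by limma, with 4 members at an unadjusted p under 0.05. The split over all genes was 35 lower and 20 higher as deposited, and 25 and 22 with TMM scaling. No other setting called a member there except the fit without the KO air mouse IIIa5, in which Kdm2a was lower by 0.35 ± 0.08 log2 (adjusted p 0.0306). Kdm2a had 131, 111, 110.1, 87.9 and 104 CPM in KO air, against 125, 138, 123, 134 and 134 in WT air, with 1 KO mouse within the WT range, and a log2 change of -0.28 ± 0.09 (limma adjusted p 0.157). The median log2 change of the members was 0.00, against -0.04 over all genes. Without IIIb2, IIIb3 and IIIb4 these medians were 0.03 and -0.01.

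In smoke, 3 members were called higher in KO than in WT (0.892% of all genes) and 0 lower (0.688% of all genes). With median centring the split over all genes was 69 lower and 197 higher, against 91 and 118 as deposited. All 3 are H3K4 methyltransferases by name. Kmt2a changed by 0.40 ± 0.07 log2 (limma adjusted p 0.00199), Kmt2c by 0.33 ± 0.07 (0.0162) and Kmt2e by 0.29 ± 0.07 (0.0252). Every KO smoke mouse exceeded every WT smoke mouse for Kmt2a and Kmt2c, and for Nsd1, which was not called (0.13 ± 0.06 log2, adjusted p 0.325), being 3 members beside 1.68% of all genes. For Kmt2e, the lowest KO mouse had 143.8 CPM and the highest WT mouse 143.9 CPM.

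Kmt2d lay on the same side at 0.26 ± 0.08 (adjusted p 0.0923, or 0.0375 without IVa2), as did Setd7 at 0.29 ± 0.11 (0.205) and Setd1b at 0.25 ± 0.10 (0.24), none of them called. In air the same 3 called genes had log2 changes of 0.01 ± 0.07 for Kmt2a, -0.06 ± 0.07 for Kmt2c and -0.03 ± 0.07 for Kmt2e. The comparisons in smoke use the same smoke mice as the smoke responses.

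**Figure D5:**
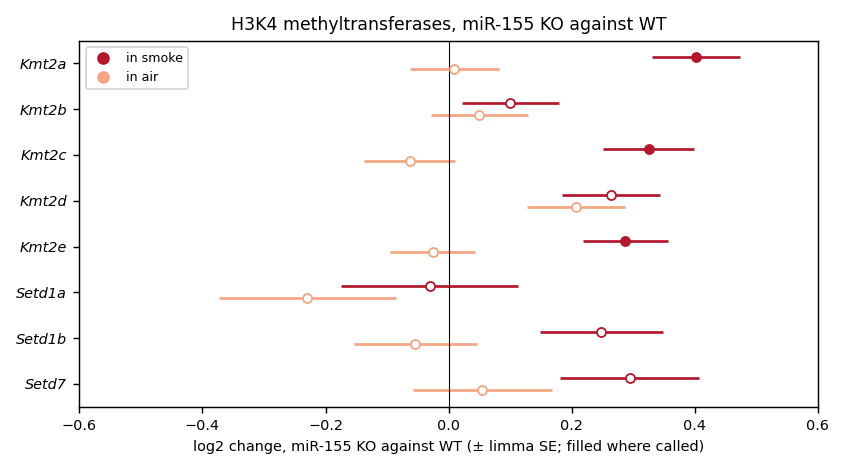
Log2 change with limma standard error (x axis) of the 8 H3K4 methyltransferases in KO against WT, in smoke (dark) and in air (light), filled where called. Kmt2a, Kmt2c and Kmt2e are filled in smoke, at 0.40, 0.33 and 0.29, and no gene is filled in air.

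The Kmt2a call held with each library left out (adjusted p up to 0.0104). That of Kmt2c was lost without IIb1, IVa4 or IVb4 (up to 0.0748), and that of Kmt2e without IIa1, IIb1, IIb2, IIb3, IVa5 or IVb2 (up to 0.104). Without the trend on longest transcript length, 0 members were called higher (0.656% of genes), with Kmt2a at 0.26 ± 0.08 (0.108), Kmt2c at 0.18 ± 0.07 and Kmt2e at 0.21 ± 0.06. Without the trend on median transcript length 3 members were called higher, beside 144 of 12657 genes. They were Kmt2a at 0.34 ± 0.07 (0.0133), Kmt2e at 0.29 ± 0.07 (0.0195) and Kmt2d at 0.31 ± 0.08 (0.0361), and Kmt2c was lost. In the longest of the 4 length bins the median log2 change of all genes between genotypes in smoke was 0.08, and in the shortest -0.11.

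The smoke response of KO mice minus that of WT mice was tested in the same fit, and 0.0% of all genes were called higher and 0.0% lower, 0 members among them. At an unadjusted p under 0.05 there were 6 members and 1302 genes, and with quantile normalization, median centring or TMM scaling 2 or 3 genes and 0 members were called. The largest differences by p were those of Kmt2a at 0.39 ± 0.10 (limma adjusted p 0.170), Kmt2c at 0.39 ± 0.10 (0.219), Kmt2e at 0.31 ± 0.10 (0.283) and Kdm2a. Over the 44 members the median difference was 0.10, against 0.02 over all genes, and -0.01 after the trend on longest length was removed. Without IIIb2, IIIb3 and IIIb4 the median difference was 0.09 for members and -0.01 for all genes.

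Since the knockout removes miR-155, seed matches in the members' longest 3-prime UTR (GENCODE M21) were counted as a description. The mature miR-155-5p (RefSeq, GRCm38.p6, chr16:84714143-84714165, plus strand) is shown with its seed, bases 2 to 8, in capitals, followed by the 3 matches found in members, with the match in capitals.
miR-155-5p: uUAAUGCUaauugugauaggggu
Kdm2a: tttaaattaaatgtaAGCATTAagggaatg
Kdm7a, first match: tttacttctgtattaAGCATTAagttgaaa
Kdm7a, second match: gaagatattggcgatAGCATTAgttagcta
A match was present in 2 of 44 members (4.55%), against 1031 of the 11282 genes with an annotated UTR (9.14%). Kdm2a had log2 changes of 0.08 in KO smoke against WT smoke and -0.28 in KO air against WT air, and Kdm7a had -0.04 and -0.09, none of them called. Kmt2a, Kmt2c and Kmt2e have no match in that UTR.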

How the data were processed

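Alveolar macrophages of 20 mice were measured by poly-A RNA sequencing, 5 mice in each of 4 groups set by the labels. Reads were aligned with STAR 2.6.0c to GRCm38.p6 and processed with limma, per the submitters' processing notes. No source used here names the read counter, its annotation or whether strand was used. The authors deposited log2 values, which follow the log2 CPM formula of voom with an offset of 0.5 per count and 1 per library, and no further scaling. That formula returned whole reads, within 0.001, for 100.0% of values. No gene of the table had under 14 reads in total or reads in under 3 libraries.

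Comparisons were fitted on the deposited log2 values of all 13225 genes and 20 libraries with limma 3.58.1 (R 4.3.3), with 4 group means, a variance prior with a mean trend and Benjamini-Hochberg adjustment over all genes. Genes were called at an adjusted p under 0.05, and the fit was checked on simulated data. Ezh2 minus Ezh1 (log2 CPM) within a mouse was compared between smoke and air groups by 2-sided exact permutation tests (scipy 1.17.1). Fold changes of genes near 0 reads depend on the offset. Since 1 sorted sample was taken per mouse, p-values measure the spread between mice, and depth sets counting error only.

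Every member called in a comparison is named, with up to 3 called genes per list and smoke comparison. Members and lists were chosen with earlier results of these data known. Alternatives were another variance prior, filters on low genes, other scalings, pseudocounts, library weights, the letter in the mouse code, transcript length, and libraries left out. Transcript lengths and 3-prime UTRs came from GENCODE M21, matched for 12657 genes and all 44 members. Python 3.11.15, pandas 2.3.3 and matplotlib 3.10.9 were used for tables and figures.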

Additional observations from a re-analysis of the deposited data

Results flagged for a closer look

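Among 88 groups of 5 mice for the members with called changes, 4 held a mouse far from the other 4 of its group, and chance flags about 1 in 20 groups. Ehmt2 had 190.291 CPM in the KO smoke mouse IVa5, above its group. Kmt2a had 178.644 CPM in the WT air mouse Ia3, Kmt2e had 221.187 CPM in the WT air mouse Ia4, and Kdm3b had 194.895 CPM in the WT air mouse Ib1, each above the other 4 WT air mice. The smoke calls of Ehmt2 in KO and of Kmt2a, Kmt2e and Kdm3b in WT held without each of these mice.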

How the results depend on the processing

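No paired analysis was possible because each mouse code occurs once. Tests with edgeR and DESeq2 were not run, since the deposited unit is log2. Under the other settings the members called lower in WT smoke numbered 18 to 25, except for 10 with the longest-length trend removed, which also moved the median log2 change to -0.12. The 25 came with array weights, which called 2343 of all genes lower, against 1690 in the main fit. Members called higher in WT smoke numbered 1, Suv39h2, with the compared groups alone and with log2(CPM + 5). In KO smoke the count lower was 10 to 15, except for 8 without IIIb2, IIIb3 and IIIb4, where 608 of 13225 genes were called lower. The members' median in KO smoke was -0.13 with quantile normalization and -0.11 with the longest-length trend removed. KO smoke against WT smoke gave 6 members higher with array weights, adding Kdm3b, Kmt2d and Setd7. Array weights called 448 of all genes higher and 506 lower there, against 118 and 91 in the main fit. Without a variance trend 1 member was higher (57 genes), and with the longest-length trend removed 0 (83 genes). The median difference between the responses turned to -0.0051 with that trend removed. With single libraries left out, members lower numbered 11 to 15 in KO smoke and 18 to 21 in WT smoke, members higher in KO smoke 0 to 1, members lower in KO air against WT air 0 to 1, and members higher in KO smoke against WT smoke 1 to 4. Among called single genes no direction was reversed under these settings, and causes were not tested. Depth limits Suv39h2, Kdm8 and Setd4, where 3 reads equal up to 0.436 CPM.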
